A study of Mus musculus with 32 samples.

Results

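Cartilage RNA of the group labelled R2 was compared with cartilage RNA of the group labelled MMS D28, gene by gene, over every gene of the deposited cartilage table. The members are therefore the 1606 genes of that table, of 2544 genes listed in the cartilage or the synovium table, and the samples are 2 R2 and 2 MMS D28 samples of 32 in the series. All animals were C57BL/6 mice, a common inbred strain, and the labels give no other allele, no age and no agent. Control cartilage came from mice whose intervention is labelled Control, and the MMS D28 and R2 groups from mice with those interventions. The labels spell out neither MMS nor R2, give no unit for the D number, and do not say whether the replicates came from separate animals or from pooled ones. The p-values below rest on the spread between replicates, pooled over all 14 cartilage samples, and this spread may be technical.

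Cartilage is made by chondrocytes, which surround themselves with a matrix of type II collagen fibrils, smaller collagens that bind to them, and large proteoglycans. Joint cartilage lies directly on bone, so a dissected sample can also carry osteoblasts, osteocytes and the marrow between the bone trabeculae. Marrow is where neutrophils and B cells are made from progenitors, and each stage has its own granule proteins, receptors and transcription factors. The chondrocyte list used here holds 28 genes, of which 21 were in the table, and none of its values was 0 in any sample. The neutrophil list had 35 of 38 genes in the table and the B cell list 21 of 30. The osteoblast and osteocyte list had 13 of 20. None of the values of these genes was 0 in any cartilage sample either. Which cells this RNA came from was not tested. In such bulk samples fewer cells of a type and less RNA per cell cannot be told apart.

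The cartilage values are a normalised signal of unstated unit, and their sums over the table ran from 108504 to 149830 in the 14 samples. The table is a selection of genes: 1590 of its 1606 genes (99.0%) differed by at least 1.5-fold between the MMS D28 and Control means, against 138 (8.59%) between R2 and Control. A comparison of R2 with MMS D28 uses the same MMS D28 samples, so its counts start from genes that already set MMS D28 apart. The first MMS D28 sample stood apart from the rest, with a median correlation of 0.918 across genes with the samples of other groups, where the other 13 samples had at least 0.947. The lowest value in the table was 0.5, and depth in reads is unknown.

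Between R2 and MMS D28, B cell genes and cartilage matrix genes were higher in R2, and stefin A genes, chitinase-like protein 1 and other neutrophil and acute phase genes were lower. In limma's moderated test on log2(signal + 1), with Benjamini-Hochberg adjustment over all genes and an adjusted p under 0.05, 1270 of 1606 genes were called (79.1%). Of these, 672 were higher in R2 (41.8% of the table) and 598 were lower (37.2%). Both R2 samples lay on one side of both MMS D28 samples for 1420 genes (88.4%), and 204 genes (12.7%) were called with a log2 change of at least 1 in either direction. At an unadjusted p under 0.05 the count was 1309 (81.5%). In a fit of the 2 groups alone 890 genes were called, 494 higher (30.8%) and 396 lower (24.7%). The median log2 change over all genes was 0.25, and 0.13 when each sample was first centred on its own median. Without the first MMS D28 sample 751 genes were called, 386 higher (24.0%) and 365 lower (22.7%), and without the first R2 sample 841, 453 higher (28.2%) and 388 lower (24.2%). The counts of list members below are to be read against these shares. A log2 change is always on the log2(signal + 1) scale, which understates the change of low genes, and a fold is the ratio of the 2 group means of signal.

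**Figure D1:**
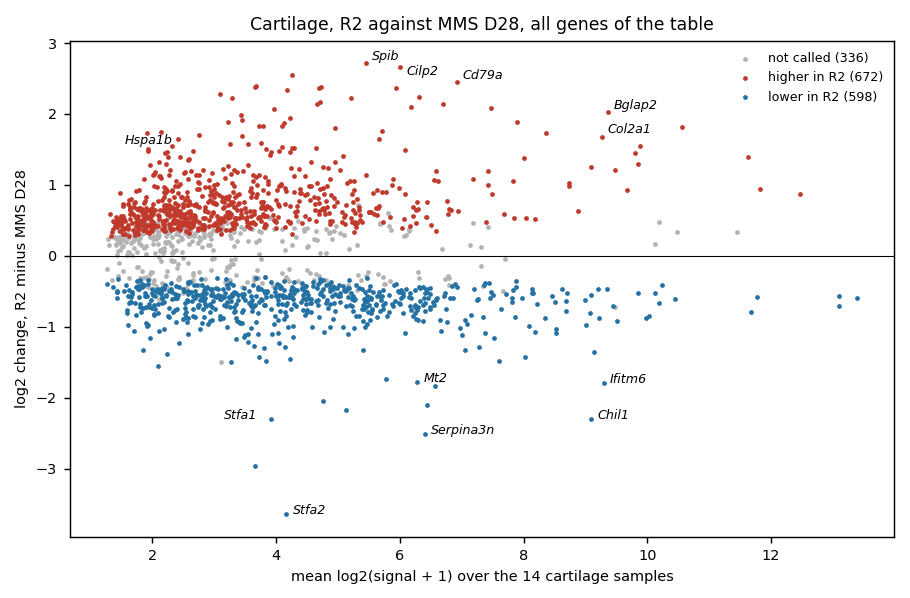
Each point is 1 of the 1606 genes. The x axis is the mean log2(signal + 1) over the 14 cartilage samples, and the y axis the log2 change from MMS D28 to R2. Red points (672) were called higher in R2, blue points (598) lower, and grey points were not called. The falls reach further from 0 than the rises, to -3.64 for Stfa2 against 2.71 for Spib.

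B cell genes made up 10 of the 14 largest rises. Spib, an Ets family transcription factor of B cells, had a signal of 14.7 and 20.97 in the MMS D28 samples and 118 and 124 in the R2 samples, with 88.9 and 95.0 in Control. Its log2 change was 2.71 with a standard error of 0.17 (limma adjusted p = 1.11e-06), a 6.78-fold higher mean. Both R2 samples also lay above both Control samples, but R2 and Control samples did not overlap for 56.3% of all genes. Spib was not called between R2 and Control. Spib lies on chromosome 7 at 44525993 to 44532071 on the minus strand (GENCODE vM21, GRCm38).

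Genes of the B cell antigen receptor rose with it. Cd79a, the signalling chain Ig-alpha, was at 43.3 and 72.9 in MMS D28 and at 315 and 307 in R2, a log2 change of 2.45 (SE 0.20, limma adjusted p = 3.44e-06). Its partner Cd79b was at 29.8 and 46.6 in MMS D28 and at 175 and 185 in R2 (log2 change 2.24). For both genes each R2 sample was more than 3 times either MMS D28 sample.

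Ms4a1, which encodes the surface protein CD20, rose from 5.07 and 9.12 to 47.4 and 42.5 (log2 change 2.55). Fcmr, a receptor for IgM, rose by 2.39, and Tnfrsf13c, the receptor for the survival factor BAFF, by 2.38 on the log2 scale. Blk, a Src family kinase of B cells, rose by 2.22, and Pou2af1, a coactivator of octamer-binding factors, by 2.17. Cd72, an inhibitory coreceptor, had the same adjusted p as Spib (1.11e-06) with a log2 change of 2.14. The remaining largest rises included Fcrla and Fam129c, both abundant in B cells, at 2.37 and 2.33.

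Genes of early B cell stages were also higher in R2, by sizes that varied. Vpreb3, a protein that binds immunoglobulin chains in precursor B cells, was at 22.9 and 43.7 in MMS D28 and at 157 and 180 in R2 (log2 change 2.37, SE 0.23, limma adjusted p = 8.3e-06). Rag1, a subunit of the recombinase that assembles antigen receptor genes, was at 1.01 and 2.03 in MMS D28 and at 6.6 and 7.89 in R2 (log2 change 1.74). The lineage factors Pax5 and Ebf1 rose by 2.07 and 1.02. Igll1, part of the surrogate light chain, rose by 0.56, a call that was lost when samples were centred on their medians and under other settings.

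The promoter of Vpreb3 is shown because it was 1 of the 5 B cell promoters read that holds the octamer, the site that Pou2af1's partner factors bind. The stretch runs from 110 to 21 bases before the RefSeq start (GRCm38.p6, chr10:75948190-75948279, plus strand), with the octamer in capitals.
Vpreb3: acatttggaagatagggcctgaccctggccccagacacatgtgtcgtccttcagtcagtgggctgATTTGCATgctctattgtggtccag
The motif was searched as ATGCAAAT or ATTTGCAT, its reverse complement, in the 250 bases before each start. It was present in 1.60% of 32851 promoters. Of the 8 B cell genes looked up 5 had a promoter in the RefSeq table, and the windows of Cd79a, Cd22, Spib and Pou2af1 did not hold these letters.

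Of the 21 measured B cell genes, 20 were called higher in R2 and none lower, where 41.8% of all genes were called higher. Their median log2 change was 2.14, against 0.25 over all genes, and the range was 0.32 to 2.71. The exception was Jchain, which joins IgM and IgA into polymers and marks antibody-secreting cells, at 57.7 and 48.2 in MMS D28 and at 63.4 and 68.6 in R2 (limma adjusted p = 0.166). Mzb1, a chaperone of antibody-secreting cells and of other B cells, rose by 1.11. The summed signal of the list was 283 and 413 in MMS D28, 1407 and 1450 in R2, 1066 and 1124 in Control, and 601 and 552 in the group labelled R1. The list's median change from Control to MMS D28 was -1.72 and from Control to R2 0.35, with both comparisons using samples of the first one.

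T and NK cell genes were few in the table, 5 of 23. Il7r, the interleukin 7 receptor that lymphoid progenitors and T cells depend on, was at 3.56 and 3.88 in MMS D28 and at 8.56 and 10.8 in R2 (log2 change 1.17). Lck and Cd8b1, a kinase and a coreceptor of T cells, rose by 0.72 and 0.52. Nkg7, a cytotoxic granule protein, went the other way with a log2 change of -0.77, and this call was lost without the first MMS D28 sample.

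**Figure D2:**
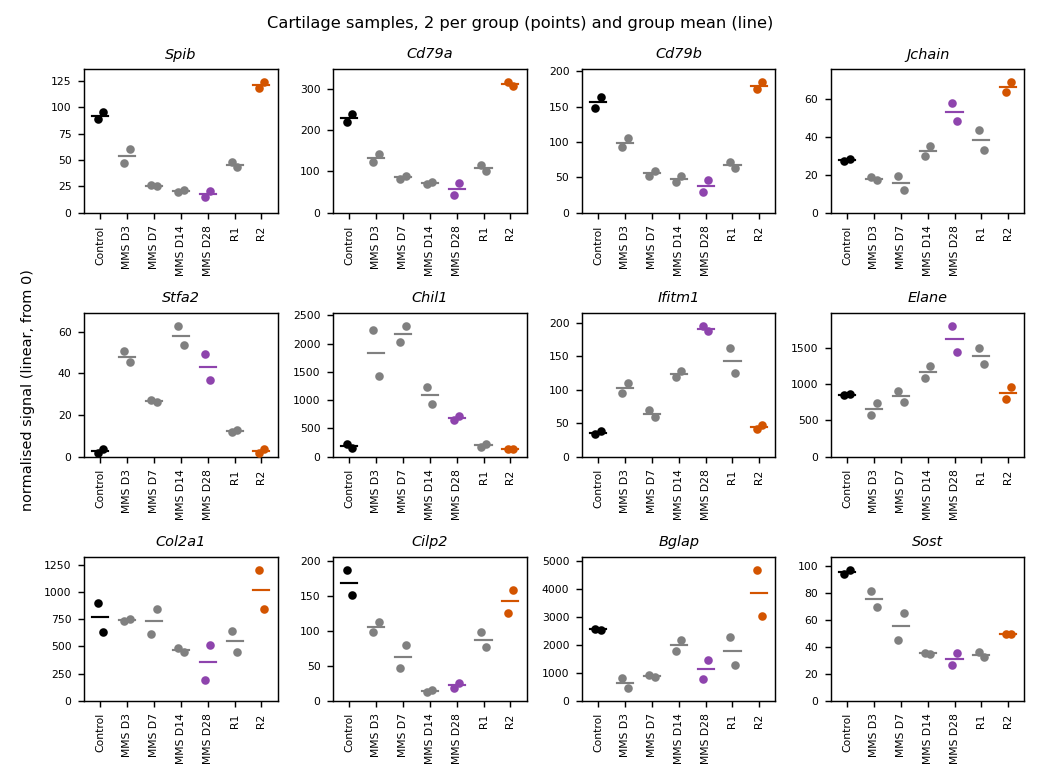
Normalised signal on linear axes from 0 for 12 genes in all 7 cartilage groups, with 1 point per sample and a line at the group mean. MMS D28 is purple, R2 orange and Control black. Spib, Cd79a and Cd79b are lowest in MMS D28 and highest in R2, and Stfa2, Chil1 and Ifitm1 in R2 lie near Control.

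The largest fall was in Stfa2, one of the stefin A genes, which encode small inhibitors of cysteine proteases made by maturing neutrophils. Its signal was 49.1 and 37.1 in MMS D28 and 1.59 and 3.73 in R2, with 1.93 and 3.46 in Control. The log2 change was -3.64 (SE 0.26, limma adjusted p = 1.92e-06), a mean 16.2-fold lower, and the R2 samples overlapped those of Control. The other stefin A genes fell too, BC100530 by 2.97, Stfa1 by 2.30, and Stfa2l1 by 1.84 on the log2 scale, and Stfa3 from 13.1 and 9.11 to 2.55 and 4.01. These genes are close relatives in 1 cluster on chromosome 16, so reads may have been divided among them and the size of each single change is uncertain.

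The starts of 3 of these genes are shown because a short run of letters is common to them. Each stretch runs from 40 to 11 bases before the RefSeq start in GRCm38.p6, and the capitals mark the longest run common to the 3 promoters of 250 bases, 21 bases long. Stfa2 lies at chr16:36408374-36408403 on the minus strand, Stfa1 at chr16:36277108-36277137 and Stfa2l1 at chr16:36156771-36156800 on the plus strand.
Stfa2: ttacagaaACCTTTAAAACCCTGAGTCTCt
Stfa1: ttcggatACCTTTAAAACCCTGAGTCTCag
Stfa2l1: agaaACCTTTAAAACCCTGAGTCTCtttgc

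Chil1, a chitinase-like glycoprotein that chondrocytes, macrophages and neutrophils secrete, was at 646 and 719.6 in MMS D28 and at 137 and 138 in R2. Its log2 change was -2.30 (SE 0.24, limma adjusted p = 1.57e-05). Both R2 samples lay below both Control samples, which were at 218 and 159. Chil1 was not called between R2 and Control (limma adjusted p = 0.391), groups that did not overlap for 56.3% of all genes. Serpina3n, a secreted serine protease inhibitor of the acute phase, was at 166 and 133 in MMS D28 and at 27.1 and 23.6 in R2 (log2 change -2.51).

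Among other large falls, Ifitm1, an interferon-induced membrane protein, was at 195.0 and 188 in MMS D28 and at 41.0 and 46.8 in R2 (log2 change -2.11). Ifitm6, its myeloid relative, fell from 1628 and 1017 to 320.3 and 429 (log2 change -1.79). Lrg1, a secreted glycoprotein of neutrophil granules and the acute phase, fell by 1.49. Wfdc17, a small secreted WAP-domain protein of myeloid cells, fell by 1.73, and Asprv1, an aspartic protease, by 2.04. None of the 14 largest rises or 14 largest falls lost its call under any alternative setting or without any 1 sample.

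Metallothioneins, which bind zinc and copper and respond to metals and glucocorticoids, were lower in R2 as well. Mt2 was at 148 and 69.6 in MMS D28 and at 33.1 and 25.0 in R2 (log2 change -1.79, limma adjusted p = 0.000825). The MMS D28 samples differed from each other by more than 2 times, and both R2 samples also lay below Control at 56.8 and 50.5. Mt2 was not called between R2 and Control (limma adjusted p = 0.207), groups that did not overlap for 56.3% of all genes. Mt1, named after its values were seen, was at 203 and 159.9 in MMS D28 and at 79.7 and 67.8 in R2.

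Neutrophil genes were lower in R2 across the stages of neutrophil maturation. Of the 35 measured genes 32 were called lower and none higher, where 37.2% of all genes were called lower, and the median log2 change was -0.85. Without the first MMS D28 sample 18 were called, and without the first R2 sample 19. Chil3, Fpr1 and Mmp8 were not called in the fit of all samples, with log2 changes of -0.72, -0.48 and -0.50. The summed signal of the list was 78301 and 58675 in MMS D28, 37422 and 47217 in R2, and 36472 and 37026 in Control.

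Primary granule genes, which are switched on at the promyelocyte stage, kept their calls without each sample in turn. Ctsg, the serine protease cathepsin G, was at 514 and 413 in MMS D28 and at 162 and 179.8 in R2 (log2 change -1.43). Prtn3, proteinase 3, was at 1206 and 896 in MMS D28 and at 369.6 and 448 in R2 (log2 change -1.35). Elane, neutrophil elastase, was at 1797 and 1449 in MMS D28 and at 800.4 and 966 in R2 (log2 change -0.87). For all 3 genes both R2 samples were below both MMS D28 samples, and their log2 changes from Control were 0.14, 0.02 and 0.04.

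Mpo, the peroxidase of the same granules, had a log2 change of -0.85. Il1r2, a decoy receptor for interleukin 1, fell by 1.46, Olfm4, a secondary granule glycoprotein, by 1.01, and Cd177, a surface protein of neutrophils, by 0.88. The calprotectin subunits S100a8 and S100a9 changed by -0.70 and -0.60, Ngp by -0.57 and Camp by -0.58, and these 4 calls were lost in the fit of the 2 groups alone.

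Upstream stretches of Elane and Prtn3 are shown because 3 of the 4 primary granule promoters read hold a motif of the type bound by PU.1, the Ets factor encoded by Spi1. The stretches run from 160 to 71 bases before the RefSeq start in GRCm38.p6, at chr10:79886152-79886241 and chr10:79879507-79879596 on the plus strand, with the motif in capitals.
Elane: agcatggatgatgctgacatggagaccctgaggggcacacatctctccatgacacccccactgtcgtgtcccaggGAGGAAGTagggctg
Prtn3: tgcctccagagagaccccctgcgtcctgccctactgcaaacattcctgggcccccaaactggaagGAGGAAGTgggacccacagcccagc
The search was for GAGGAAGT or ACTTCCTC in the 250 bases before each start, and 2.44% of 32851 promoters held it. Mpo also held it and Ctsg did not. The motifs in this report were chosen after the values were known, and a match describes letters and no binding.

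Haematopoietic progenitor genes, 4 of which are the granule genes above, were all called lower in R2, 9 of 9 measured. Of all genes 37.2% were called lower. The median log2 change of the list was -0.85, against 0.25 over all genes. Ms4a3, a membrane protein of granulocyte and monocyte progenitors, was at 252 and 196 in MMS D28 and at 79.8 and 96.4 in R2 (log2 change -1.33). Gfi1, a repressor needed for neutrophil differentiation, changed by -0.78, and Spi1 by -0.60. Kit and Flt3, receptors of early progenitors, changed by -0.59 and -0.48, the latter with its call lost without the first MMS D28 sample. The summed signal was 5896 and 4657 in MMS D28 and 2419 and 2867 in R2.

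Monocyte and macrophage genes changed in both directions. Ccr2, the chemokine receptor that draws monocytes from marrow, was at 48.5 and 39.2 in MMS D28 and at 19.8 and 23.0 in R2 (a mean 2.05-fold lower), and Ly6c2, a marker of classical monocytes, changed by -0.71 on the log2 scale. The antigen presentation genes of the list went up. Cd74, the invariant chain of class II molecules, was at 308 and 443 in MMS D28 and at 980.1 and 797 in R2 (log2 change 1.26), and H2-Ab1, a class II chain, rose by 1.08. B cells make both genes too, and the part of the B cell signal in them was not tested. Of 9 measured genes 2 were higher and 5 lower, where 41.8% of all genes were called higher and 37.2% lower. Some of the lower calls were lost without the first MMS D28 sample or without the second R2 sample.

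**Figure D3:**
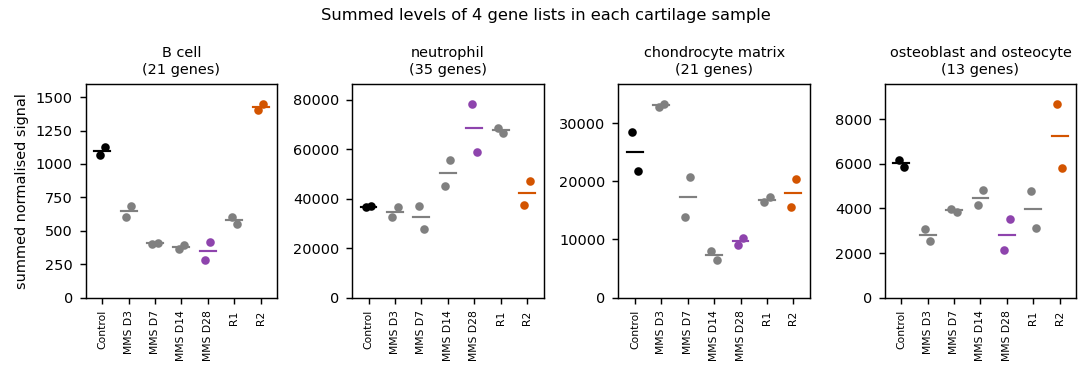
Summed normalised signal of the measured members of 4 gene lists in each of the 14 cartilage samples, with 2 points and a mean line per group and axes from 0. B cell sums in R2 (1407 and 1450) lie above those of every other group. Neutrophil sums in R2 lie below those of MMS D28 and R1, and chondrocyte sums in R2 lie between MMS D28 and Control.

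Cartilage matrix genes were higher in R2 than in MMS D28. Col2a1, the type II collagen that forms the cartilage fibril, was at 192 and 517 in MMS D28 and at 1204 and 845 in R2, with 906 and 638 in Control. The groups did not overlap, although the MMS D28 samples differed by more than 2 times (log2 change 1.68, SE 0.37, limma adjusted p = 0.00255). Collagens that coat or nucleate this fibril rose with it, Col9a3 by 1.21, Col9a2 by 1.02, Col11a1 by 1.14 and Col11a2 by 1.07 on the log2 scale.

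The largest rise in a cartilage gene was in Cilp2, a matrix glycoprotein of articular cartilage. It was at 18.7 and 24.7 in MMS D28 and at 126 and 159 in R2, with 186 and 151 in Control (log2 change 2.66, SE 0.24, limma adjusted p = 6.01e-06). Its relative Cilp, made in the middle zone of cartilage, was at 495 and 419 in MMS D28 and at 1006 and 1536 in R2 (log2 change 1.45). Ucma, a secreted protein of resting and early differentiating chondrocytes, was at 24.8 and 24.3 in MMS D28 and at 69.1 and 89.6 in R2 (log2 change 1.64).

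Fmod, a small proteoglycan that binds collagen fibrils, was at 46.5 and 181 in MMS D28 and at 465 and 329.5 in R2 (log2 change 2.08, SE 0.45). Hapln1, the link protein that ties aggrecan to hyaluronan, rose by 0.89 and Snorc, a chondrocyte membrane proteoglycan, by 0.98. The chondrocyte master regulator Sox9 and the matrix protein Comp changed by 0.79 and 0.93, and both calls were lost without the first MMS D28 sample. Aggrecan itself, Acan, was at 119 and 111 in MMS D28 and at 144 and 163 in R2 and was not called (limma adjusted p = 0.132).

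Prg4, the lubricin of the cartilage surface, was at 2205 and 1754 in MMS D28 and at 1974 and 3117 in R2. The groups overlapped and the gene was not called (limma adjusted p = 0.353). In all, 17 of 21 measured chondrocyte genes were called higher and none lower, where 41.8% of all genes were called higher. Some of these calls were lost without the first MMS D28 sample. The median log2 change of the list was 0.95 against 0.25 over all genes. Their summed signal was 9106 and 10259.9 in MMS D28, 15657 and 20376 in R2, and 28472 and 21699.6 in Control. The median change from Control to R2 was -0.24 and from Control to MMS D28 -1.07. The neutrophil and B cell sums moved between the same samples, and their part in the matrix changes was not tested.

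Hypertrophic chondrocyte genes belong to cells that calcify their matrix before bone replaces it. Col10a1, their type X collagen, was at 442 and 649 in MMS D28 and at 1222 and 1426 in R2 (log2 change 1.30, SE 0.26, limma adjusted p = 0.0016). Mmp13, the collagenase of the same cells, was at 145 and 194 in MMS D28 and at 116 and 47.3 in R2 (log2 change -1.17), a call lost without the second R2 sample. Ihh, the hedgehog signal of prehypertrophic cells, changed by 0.53, and its call was lost in the fit of the 2 groups alone and without the first MMS D28 sample. Of 8 measured genes 4 were higher and 1 lower, a share near the 41.8% of all genes called higher, with 2 higher without the first R2 sample and 1 without the first MMS D28 sample.

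Bone cell genes were taken as 1 list of osteoblast and osteocyte genes. Bglap2, an osteocalcin gene, was at 338 and 576 in MMS D28 and at 2259.66 and 1429 in R2, with 1269.52 and 1338 in Control (log2 change 2.02, SE 0.32, limma adjusted p = 0.000335). Bglap, a near-identical copy with which it may share reads, was at 773 and 1454 in MMS D28 and at 4664 and 3017 in R2 (log2 change 1.82). Dlx5, a homeobox factor of osteoblasts, was at 13.9 and 16.1 in MMS D28 and at 34.2 and 31.2 in R2 (log2 change 1.08). Sp7, the osteoblast factor osterix, changed by 0.82 and lost its call without the first R2 or the first MMS D28 sample.

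Ibsp, a sialoprotein of osteoblast matrix, had a log2 change of 0.17 and was not called (limma adjusted p = 0.488). Dmp1 and Phex, osteocyte genes that govern phosphate and mineral, had log2 changes of 0.09 and 0.24 and were not called, and Sost, the osteocyte antagonist described with the Wnt genes, was called higher. Mepe, a phosphoglycoprotein of the same cells, was at 36.0 and 46.0 in MMS D28 and at 61.7 and 43.6 in R2. Its groups overlapped and it was not called (limma adjusted p = 0.124). In the whole list 9 of 13 genes were higher and none lower, where 41.8% of all genes were higher, with a median log2 change of 0.75. Without the first MMS D28 sample 4 were higher, where 24.0% of all genes were.

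**Figure D4:**
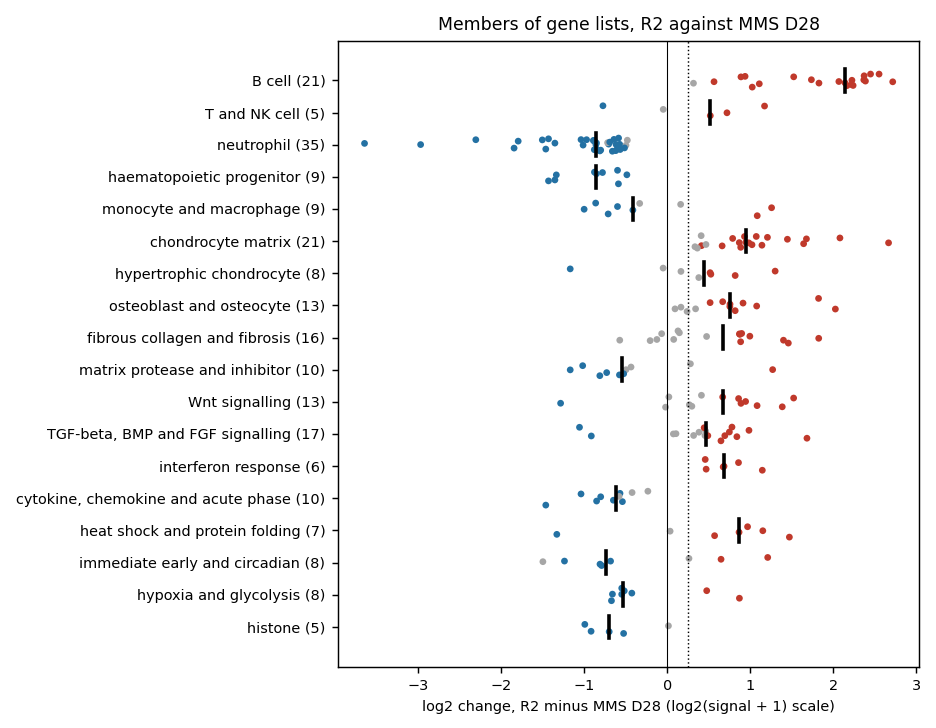
Log2 change from MMS D28 to R2 for each measured member of 18 gene lists, with the number of members in brackets. Red points were called higher in R2, blue points lower and grey points were not called. The short black bars are list medians and the dotted line is the median over all genes (0.25). B cell members lie furthest to the right, and the stefin A genes of the neutrophil list furthest to the left.

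Genes for collagen outside cartilage and for collagen processing divided. Enzymes and chaperones of collagen assembly rose, with P4ha1, a prolyl hydroxylase, at 20.2 and 23.1 in MMS D28 and at 41.7 and 38.8 in R2 (log2 change 0.87). Loxl2, a lysyl oxidase that crosslinks collagen, rose by 1.46 and Plod2, a lysyl hydroxylase, by 0.90. Serpinh1, the collagen chaperone, was 2.02-fold higher. Sparc, a matrix protein abundant in bone, rose by 1.40, and Col15a1, a collagen of basement membrane zones, by 1.82.

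Col3a1, the type III collagen of loose connective tissue, was at 94.2 and 335 in MMS D28 and at 258 and 150.5 in R2, so the groups overlapped. Lum, Postn, Aspn and Col12a1, other genes of fibrous tissue, had log2 changes of 0.13, 0.08, -0.07 and -0.12 and were not called. In the second MMS D28 sample Aspn and Col12a1 were at 37.7 and 17.0, against 5.52 and 4.69 in the first. Of 16 measured genes of the fibrous collagen list 8 were higher and none lower, a share near the 41.8% of all genes called higher, with a median log2 change of 0.67. Without the first MMS D28 sample 7 were higher and 3 lower.

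Matrix proteases and their regulators changed in both directions. Mmp9, a gelatinase of neutrophils and osteoclasts, was at 720.3 and 581 in MMS D28 and at 357 and 381 in R2 (log2 change -0.81). Plat, tissue plasminogen activator, was at 3.65 and 5.88 in MMS D28 and at 13.2 and 12.1 in R2 (log2 change 1.27). Mmp9 and Plat thus changed in opposite directions, and for neither gene did the R2 and MMS D28 samples overlap. Of 10 measured genes 6 were lower and 1 higher, where 37.2% of all genes were lower, with a median log2 change of -0.55. Without the second R2 sample 3 were lower, where 33.9% of all genes were.

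Wnt signals drive bone formation and chondrocyte maturation, and secreted antagonists hold them back. Wif1, which binds Wnt proteins, was at 117 and 148 in MMS D28 and at 348 and 342 in R2, with 416 and 372 in Control (log2 change 1.39, SE 0.19, limma adjusted p = 0.000116). Sfrp5, a decoy for Wnt proteins, was at 10.8 and 11.9 in MMS D28 and at 31.2 and 37.8 in R2 (log2 change 1.52). Dkk1, which blocks the coreceptor, was at 2.7 and 3.69 in MMS D28 and at 8.01 and 6.13 in R2 (log2 change 0.94). For these 3 antagonists each R2 sample was above each MMS D28 sample.

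Notum, an enzyme that inactivates Wnt proteins, rose by 1.08. Sost, the osteocyte antagonist sclerostin, was at 26.4 and 35.4 in MMS D28 and at 49.3 and 49.0 in R2 (log2 change 0.67), a call lost without the first MMS D28 sample. The receptor Fzd8 rose by 0.86 and Lef1, a factor that carries the signal in the nucleus, by 0.89. Wisp2, a matricellular protein, was at 19.1 and 28.2 in MMS D28 and at 11.9 and 6.69 in R2 (log2 change -1.28). The ligands Wnt5b and Wnt16 had log2 changes of 0.27 and 0.02 and were not called. Wnt11, a ligand outside the list, was called higher with a log2 change of 0.91. Of the 13 measured genes of the list 7 were higher and 1 lower, a share near the 41.8% of all genes called higher.

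Of the TGF-beta, BMP and FGF genes, which pattern cartilage and bone, the secreted BMP antagonists Grem1 and Nog were higher. Nbl1, another such antagonist in the table, had a log2 change of 0.45 and was not called (limma adjusted p = 0.357). Grem1, gremlin, was at 4.2 and 3.48 in MMS D28 and at 11.6 and 18.02 in R2 (log2 change 1.68), and Nog, noggin, rose by 0.78. Smad6, an inhibitor inside the cell, rose by 0.75. The ligand Gdf10 was at 11.2 and 15.1 in MMS D28 and at 28.6 and 25.1 in R2 (log2 change 0.98). The ligands Bmp5, Bmp6 and Bmp8a were also called higher, with log2 changes of 0.90, 0.84 and 0.45. Bmp2, Bmp3 and Bmp7 were not called. Tgfbi, a matrix protein induced by TGF-beta, was at 166 and 135 in MMS D28 and at 71.8 and 71.3 in R2 (log2 change -1.05), and Inhba, an activin subunit, fell by 0.91. In all 9 of 17 genes were higher and 2 lower, a share near the 41.8% of all genes called higher. Without the first R2 sample 5 were higher, where 28.2% of all genes were, and without the first MMS D28 sample 4, where 24.0% were.

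Genes of the cytokine, chemokine and acute phase list were lower where called. Outside the list, the chemokine Ccl27a and the alpha-1 antitrypsin genes Serpina1b and Serpina1a were called higher, with log2 changes of 0.68, 1.49 and 1.05. Hp, the haemoglobin-binding protein haptoglobin, was at 709.9 and 514 in MMS D28 and at 276 and 312 in R2 (log2 change -1.04, SE 0.18). Osm, a cytokine of the interleukin 6 family, was at 11.02 and 10.5 in MMS D28 and at 4.91 and 6.19 in R2 (log2 change -0.85), and Ccl9, a chemokine of myeloid cells, changed by -0.57. Il1b was at 17.5 and 25.5 in MMS D28 and at 14.3 and 16.8 in R2 and was not called (limma adjusted p = 0.137). Of 10 measured genes 7 were lower and none higher, where 37.2% of all genes were lower, or 4 lower without the first R2 sample. Neutrophil genes overlap this list and the neutrophil sums moved with it, and their part in its change was not tested.

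All 6 measured genes of the interferon response list, of 36 listed, were called higher in R2, where 41.8% of all genes were. Their median log2 change was 0.68. Ifitm1, the interferon-induced gene among the large falls above, is not on the list. Ifi209, a nucleic acid sensor family member, was at 9.46 and 9.24 in MMS D28 and at 22.8 and 20.98 in R2 (log2 change 1.15), and Oasl1, an antiviral protein, changed by 0.46. Xaf1 and Ifi27l2a changed by 0.67 and 0.86. Only 2 of the 6 were called without the first MMS D28 sample.

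Most of the measured heat shock and protein folding genes, 7 of 30 listed, were higher in R2. Of the 7 genes 5 were called higher and 1 lower, where 41.8% of all genes were called higher and 37.2% lower. Some of the higher calls were lost without the first MMS D28 sample. Hspa1b, an inducible Hsp70, was at 2.3 and 2.84 in MMS D28 and at 9.25 and 8.5 in R2, with 7.03 and 7.49 in Control (log2 change 1.47, SE 0.17, limma adjusted p = 3.99e-05). Hspa1a, its near-identical copy, was at 1.91 and 2.49 in MMS D28 and at 4.94 and 5.54 in R2 (log2 change 0.97), and reads may be divided between the copies. Hsph1, an Hsp110 chaperone, was at 6.6 and 6.04 in MMS D28 and at 16.9 and 13.7 in R2 (log2 change 1.15). Trib3, a pseudokinase induced by stress of the endoplasmic reticulum, fell from 5.31 and 4.56 to 1.33 and 1.39 (log2 change -1.33), and Hspb1 had a log2 change of 0.04.

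The promoters of Hspa1a and Hspa1b are shown because they are nearly identical, with the same base at 247 of 250 positions before the start, and because both hold a core heat shock element. The stretches run from 160 to 71 bases before the RefSeq start in GRCm38.p6, at chr17:34972227-34972316 and chr17:34959309-34959398 on the minus strand, with the element in capitals.
Hspa1a: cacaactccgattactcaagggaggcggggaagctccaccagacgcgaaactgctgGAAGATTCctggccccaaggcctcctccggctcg
Hspa1b: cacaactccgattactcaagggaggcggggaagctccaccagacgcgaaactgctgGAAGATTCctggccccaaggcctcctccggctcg
The element was searched as GAANNTTC, which reads the same on both strands, and 6.69% of 32851 promoters held it in 250 bases. Of 6 genes looked up 5 had a promoter in the table and 3 held it, the third being Hspb1, which was not called between these groups.

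Clock and glucocorticoid-responsive genes changed in both directions. Arntl, a core activator of the circadian clock, was at 3.82 and 3.74 in MMS D28 and at 9.89 and 10.2 in R2, with 10.6 and 10.3 in Control (log2 change 1.21). Per1, a clock repressor that glucocorticoids also induce, was at 30.9 and 26.9 in MMS D28 and at 11.3 and 12.1 in R2, with 9.09 and 8.34 in Control (log2 change -1.24). Tsc22d3, a glucocorticoid-induced leucine zipper protein, changed by -0.79. Fosb, an immediate early gene, was at 4.25 and 30.4 in MMS D28 and at 2.01 and 5.88 in R2 and was not called. Of 8 measured genes 2 were higher and 4 lower, where 41.8% of all genes were called higher and 37.2% lower. The time of day of collection is not given in the sources used here.

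Glycolysis genes were lower in R2 by less than 2-fold. Hk2, a hexokinase, was at 9.0 and 8.26 in MMS D28 and at 5.46 and 5.72 in R2 (log2 change -0.55), and Gpi1, the isomerase that follows it, changed by -0.66. Of the 8 measured genes of hypoxia and glycolysis 6 were lower, where 37.2% of all genes were, and 2 higher, the latter being P4ha1 and Bnip3, and 3 were lower without the first MMS D28 sample. Histone genes of the H2A and H2B families were lower too, 4 of 5 measured, where 37.2% of all genes were. Some of these calls were lost without the first R2 or the first MMS D28 sample. Hist2h2be was at 8.97 and 8.91 in MMS D28 and at 5.5 and 4.78 in R2 (log2 change -0.70), and Hist1h2ao changed by -0.92, with reads that near-identical histone copies may share.

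Few fat, muscle and synovial markers were in the table. Of 8 adipocyte genes 1 was higher and 2 lower, and of 6 skeletal muscle genes none was higher and 1 lower. Of 3 synovial lining genes and 3 endothelial genes none was called in either direction. Over all genes 79.1% were called, 41.8% higher and 37.2% lower. The skeletal muscle sum was 216 and 188 in MMS D28 and 209.9 and 138 in R2. No gene of the 40 on the cell cycle list was in the table.

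R2 was also set against Control to place its levels, with the same R2 samples. Between these groups 12 of 1606 genes were called (0.747%), 1 higher (0.0623%) and 11 lower (0.685%) in R2, against 251 (15.6%) at an unadjusted p under 0.05. The counts of the first comparison and of this one cannot be read against each other, because the table was selected on genes that differ between MMS D28 and Control, of which 1563 (97.3%) were called in the same fit, 686 higher in MMS D28 (42.7%) and 877 lower (54.6%). The samples of R2 and Control did not overlap for 904 genes (56.3%). With a log2 change of at least 1 there were 5 calls (0.311%). Without the second Control sample 3 genes were called, and without the second R2 sample none, where limma gave 168 genes an unadjusted p under 0.05. With the replicate number as a block 1 gene was called, and in the fit of the 2 groups alone none, with 298 at an unadjusted p under 0.05.

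Each of the 12 genes lost its call in the fit of the 2 groups alone and without the second R2 sample. Of the 12 genes, 3 belong to bone cells or restrain Wnt signals. Sost was at 94.2 and 96.6 in Control and at 49.3 and 49.0 in R2 (log2 change -0.94, limma adjusted p = 0.034), with the R2 samples above those of MMS D28 and below those of Control. Mepe was at 107 and 125 in Control and at 61.7 and 43.6 in R2 (log2 change -1.14). Dkk1 was at 13.7 and 12.5 in Control and at 8.01 and 6.13 in R2 (log2 change -0.81). These 3 genes, an osteocyte antagonist, an osteocyte matrix protein and a Wnt antagonist, had log2 changes from Control to MMS D28 of -1.61, -1.49 and -1.76.

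Mall, a membrane raft protein, was at 16.2 and 14.6 in Control, at 3.27 and 3.91 in MMS D28 and at 8.13 and 8.42 in R2. Lamc3, a laminin chain, was at 4.5 and 4.95 in Control, at 1.57 and 2.18 in MMS D28 and at 2.27 and 2.18 in R2. Hspb1, a small heat shock protein, was at 36.7 and 33.9 in Control, at 17.8 and 21.4 in MMS D28 and at 20.4 and 19.7 in R2. So Mall lay between the other groups in R2, and Hspb1 lay where MMS D28 was.

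Aldh6a1, a mitochondrial enzyme of valine breakdown, and Coq8a, a kinase-like protein of coenzyme Q synthesis, had log2 changes from Control of -0.78 and -0.86. Serpina1d and Serpina1e, near-identical alpha-1 antitrypsin genes whose reads may be shared, were at 154 and 73.7 and at 66.0 and 36.9 in Control, and at 22.7 and 42.0 and at 16.4 and 22.8 in R2. Rtn2, a reticulon of muscle and nerve, was at 4.4 and 12.1 in Control and at 1.26 and 1.4 in R2. The skeletal muscle sum was 229 and 532 in Control, so the second Control sample was high in both, and its part in the Rtn2 difference was not tested.

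Jchain was the 1 gene called higher in R2 than in Control. It was at 26.97 and 27.99 in Control, at 57.7 and 48.2 in MMS D28 and at 63.4 and 68.6 in R2 (log2 change from Control 1.23, SE 0.21, limma adjusted p = 0.033). Its call was lost with the replicate block, in the fit of the 2 groups alone and without any 1 of the R2 or Control samples, and its adjusted p over all alternatives ran from 0.0323 to 0.152. Unlike the other 20 measured B cell genes it was called higher, not lower, in MMS D28 than in Control, with a log2 change of 0.92.

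**Figure D5:**
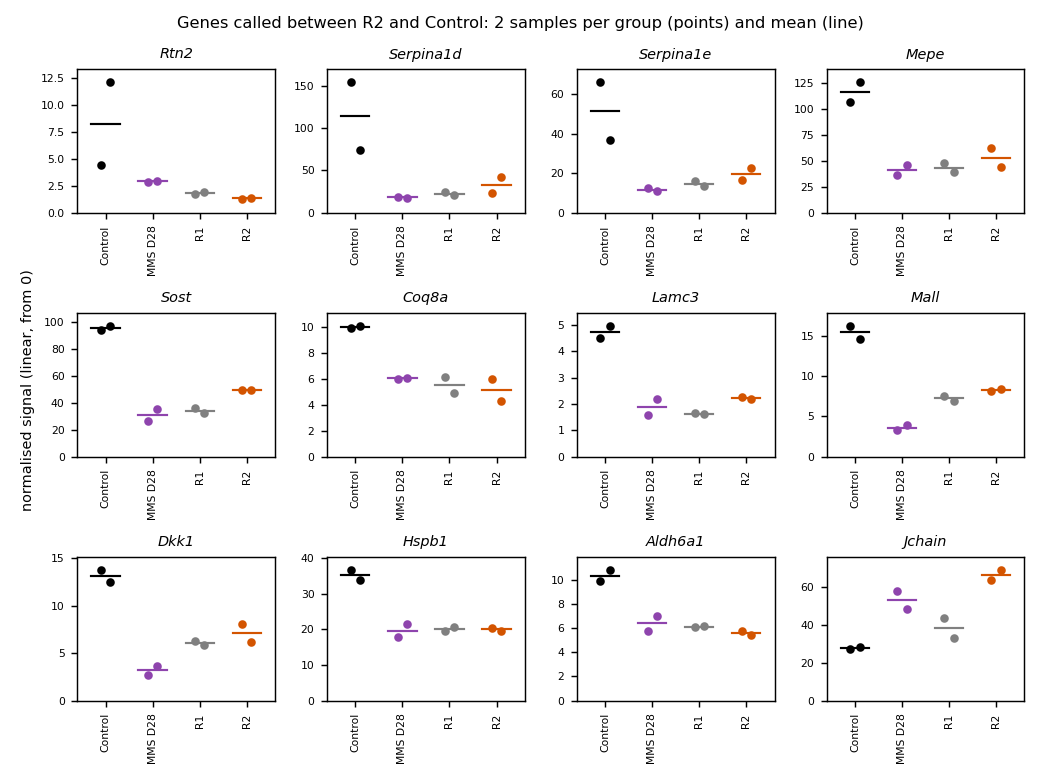
Normalised signal on linear axes from 0 for the 12 genes called between R2 and Control, in the Control, MMS D28, R1 and R2 samples (2 points and a mean line per group). For 11 genes the R2 points lie below the Control points, and for Jchain above them.

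The synovium table holds 240 of the cartilage genes but no MMS D28 samples, so R2 was placed there beside MMS D14 and Control as a description. Cd74 had a mean FPKM of 876 ± 237 (SD, n = 3) in synovium R2, 379 ± 76.5 in MMS D14 and 580.2 ± 145 in Control. Irf4, a factor of B cells and plasma cells that rose by 1.64 in cartilage, was at 4.76 ± 0.0907 in R2, 1.41 ± 0.149 in MMS D14 and 5.51 ± 0.541 in Control. Fmod, higher in cartilage R2 than in MMS D28, was lower in synovium R2 than in MMS D14. Its synovium means were 49.2 ± 12.9 in R2, 362 ± 93.6 in MMS D14 and 10.8 ± 7.66 in Control. These genes are examples. Of other genes in both tables, some changed in the same direction in the 2 comparisons, such as Socs3, and some in opposite directions, such as Cilp. The tables were normalised separately, so levels are compared only within each tissue.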

How the data were processed

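RNA sequencing of cartilage (14 samples, 7 groups of 2) and synovium (18 samples, 6 groups of 3) was used as deposited. RNA was extracted with Trizol and libraries followed BGI protocols, per the labels' protocols, and the submitters' processing notes name HISAT2 and mm10. The authors deposited a normalised signal of unstated unit and normalisation for cartilage, and FPKM for synovium per the file headers. Read counts were not used here, so no count model was fitted and depth is unknown.

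Values were transformed to log2(signal + 1) and fitted with limma 3.58.1 in R 4.3.3 (1 mean per group over all 14 cartilage samples, variance trend, Benjamini-Hochberg adjustment, threshold 0.05). A filter of at least 1 in 2 samples kept all 1606 genes. The contrasts were R2 minus MMS D28, R2 minus Control and MMS D28 minus Control. The script was tested on simulated data. In 2 rows the symbol is a date or number, and they stay in the fit unnamed.

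The gene lists and the comparison were chosen with earlier results of these data known. Named genes are the 14 largest rises and falls among called, non-overlapping genes above the median level, without predicted models, those with the smallest adjusted p in each list, list members that did not pass, and the genes called against Control. The genes of the closing observations, with Mt1, Tnfrsf13c and Irf4, and some list members were also named after their values were seen. Alternatives were centring, a pseudocount of 0.1, no filter, no trend, a replicate block, only the 2 groups compared, a log2 change of at least 1, and leaving out each sample. Gene positions are from GENCODE vM21, promoters from RefSeq (GRCm38.p6). Some genes of the table are not reported here by name.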

Additional observations from a re-analysis of the deposited data

How the results depend on the processing

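For R2 against MMS D28, 1270 genes were called, 204 with a log2 change of at least 1, and between 751 (without the first MMS D28 sample) and 1333 (without the second) when 1 sample was left out. The split of 672 higher and 598 lower became 525 and 649 with centred samples. With only the 2 groups compared 890 genes were called. For R2 against Control the 12 calls became 5 with a log2 change of at least 1, 1 with a replicate block, none with only the 2 groups compared (298 at an unadjusted p under 0.05), and from 0 to 17 when 1 sample was left out.

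Replicate numbers are shared labels: residuals of same-numbered R2 and MMS D28 samples had a correlation of -0.51 and those of all pairs of groups ran from -0.51 to 0.42. With the number as a replicate block 1222 genes were called for R2 against MMS D28. With the R2 numbers exchanged, an alternative chosen after seeing the data, 1240 were called.

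List counts, an alternative also added after seeing the data, moved as follows when 1 sample was left out: hypertrophic chondrocyte 1 to 5, osteoblast and osteocyte 4 to 11, matrix protease 3 to 6, TGF-beta, BMP and FGF 4 to 12, neutrophil 18 to 35, monocyte and macrophage 2 to 5, interferon 2 to 6, cytokine 4 to 6, heat shock 3 to 5, hypoxia and glycolysis 3 to 6, and histone 2 to 3. With only the 2 groups compared the hypertrophic list had 2 genes higher and the hypoxia and glycolysis list 3 lower. No named gene changed direction past the threshold. With 2 samples a group and a table preselected on MMS D28, small changes have wide error, and the cause of the moves was not tested.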

Other observations

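Other groups of genes, chosen after their values were seen and so without support from their choice, changed between R2 and MMS D28. The NADPH oxidase of phagocytes makes superoxide, and subunits of it were lower in R2. Cybb, its membrane core, was at 176 and 142 in MMS D28 and at 87.5 and 99.5 in R2 (log2 change -0.75, limma adjusted p = 0.00319), and Ncf4, a cytosolic subunit, at 222 and 179 in MMS D28 and at 99.3 and 113 in R2 (log2 change -0.91). Ncf1 and Cyba changed by -0.75 and -0.47, and the call of Cyba was lost with only the 2 groups compared. Enzymes of the pentose phosphate pathway and of glutathione recycling were also lower, with G6pdx at 240.4 and 179.7 in MMS D28 and at 96.9 and 116 in R2 (log2 change -0.97), Gsr at -1.02, Pgd at -0.65 and Tkt at -0.59. Me1, the malic enzyme that also supplies NADPH, was called the other way, higher in R2 with a log2 change of 0.55 (limma adjusted p = 0.023).

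Leukotriene genes were lower as well. Alox5ap, which presents arachidonic acid to 5-lipoxygenase, was at 763 and 499 in MMS D28 and at 257 and 324 in R2 (log2 change -1.09), and Alox5, Lta4h and the receptor Ltb4r1 changed by -0.77, -0.87 and -0.92. Mature B cell genes outside the lists rose: Fcer2a, the low-affinity IgE receptor CD23, was at 3.22 and 5.51 in MMS D28 and at 21.7 and 16.2 in R2 (log2 change 1.91), Cxcr5, a follicle homing receptor, rose by 1.46 and H2-Ob, a class II regulator of B cells, by 1.57. Chst3, which sulfates chondroitin chains, was at 7.24 and 10.1 in MMS D28 and at 34.7 and 37.2 in R2 (a mean 4.14-fold higher), and Clec3a, a cartilage lectin, rose by 1.54 on the log2 scale. In R1, Fcer2a was at 5.16 and 5.33 and Chst3 at 17.7 and 20.2.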
